A study of Mus musculus with 15 samples.

Results

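Complement is a set of plasma proteins that mark and lyse cells, and the liver makes most of it. The 9 genes studied here encode components made by hepatocytes, and they were chosen by name: *C3*, *C4b*, *C6*, *C8a*, *C8b*, *C8g*, *C9*, *Hc* and *Cfb*. They are 9 of the 25731 genes to which the deposited transcripts could be assigned, and all 9 passed the filter on low counts. Total RNA of mouse liver had been sequenced in 15 libraries, and the labels give C57BL/6, a common inbred strain, as the genotype of every library. A ketogenic diet (a diet with so little carbohydrate that the liver makes ketone bodies), a high-fat diet and chow were compared, with 5 libraries for each. Mice received the first 2 diets for 3 days at 12 weeks of age. The labels also give 3 days for chow, but no age for the chow mice, and neither the sex of the mice nor the make-up of the diets is stated in the labels. The labels do not say that each library came from a separate mouse, so p-values measure the spread between these libraries, which may be partly technical.

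Complement is started by 3 routes that meet at C3. In the classical and lectin routes, proteases cut C4 and C2 to form an enzyme that cuts C3, and in the alternative route factor B (*Cfb*) provides that enzyme. C3 fragments coat a target and help to cut C5, which *Hc* encodes in the mouse, and the released C5b then recruits C6, C7, C8 and C9 in turn to form the membrane attack complex, a pore in the target membrane. C8 is itself built from 3 chains, alpha, beta and gamma, encoded by *C8a*, *C8b* and *C8g*. Many of these genes are raised in hepatocytes by inflammatory cytokines as part of the acute phase response, and *C6* is known to be expressed more in male than in female mouse liver.

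The estimated read counts, the reads that kallisto assigned to transcripts, summed to between 34707597 and 50914494 per ketogenic library, between 30121672 and 44764257 per high-fat library and between 30190806 and 43688344 per chow library. The 9 genes together took 0.951 to 1.25% of the reads on the ketogenic diet, 0.921 to 1.08% with the high-fat diet and 0.868 to 1.03% on chow. Reads of the Y-linked gene *Ddx3y* were found in every library (2195 to 4583 reads). Major urinary protein (*Mup*) genes, highly expressed by hepatocytes, made up 4.62 ± 0.918% of reads (SD, n = 5) with the ketogenic diet, 11.2 ± 3.11% with the high-fat diet and 10.2 ± 2.57% with chow. Counts were therefore scaled with TMM factors, which are robust to a few dominant genes. Of 13967 genes tested, 52.6% of the calls between the ketogenic diet and chow were higher on the ketogenic diet with TMM, and 68.5% were so with scaling by total count. Between the ketogenic and the high-fat diet these shares were 50.1 and 70.6%.

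The sequences just upstream of the genes are shown because *C6*, *C8b* and *C9* were lower on the ketogenic diet while *C8a*, the neighbour of *C8b*, did not pass the test. RefSeq windows on GRCm38.p6, from 250 bases before to 50 bases after the transcription start, were found for 7 of the 9 genes, and all are given from 5′ to 3′ on the strand of the gene. Capitals mark a match to 1 of 5 motifs searched on both strands. The *C6* window is chr15:4726960-4727259 (plus strand), that of *C8b* is chr4:104766067-104766366 (plus), that of *C9* is chr15:6445096-6445395 (plus) and that of *C8a* is chr4:104876349-104876648 (minus).
C6: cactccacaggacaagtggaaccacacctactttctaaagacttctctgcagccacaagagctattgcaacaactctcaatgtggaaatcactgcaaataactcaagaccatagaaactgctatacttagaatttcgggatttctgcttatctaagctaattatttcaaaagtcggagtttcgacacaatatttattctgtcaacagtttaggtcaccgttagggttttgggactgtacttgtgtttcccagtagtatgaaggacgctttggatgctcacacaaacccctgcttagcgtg
C8b: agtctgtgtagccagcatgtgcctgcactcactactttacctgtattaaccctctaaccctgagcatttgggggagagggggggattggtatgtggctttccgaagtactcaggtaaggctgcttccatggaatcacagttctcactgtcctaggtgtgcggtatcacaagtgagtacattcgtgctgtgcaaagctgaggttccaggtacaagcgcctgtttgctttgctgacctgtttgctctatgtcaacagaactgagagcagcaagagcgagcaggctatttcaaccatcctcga
C9: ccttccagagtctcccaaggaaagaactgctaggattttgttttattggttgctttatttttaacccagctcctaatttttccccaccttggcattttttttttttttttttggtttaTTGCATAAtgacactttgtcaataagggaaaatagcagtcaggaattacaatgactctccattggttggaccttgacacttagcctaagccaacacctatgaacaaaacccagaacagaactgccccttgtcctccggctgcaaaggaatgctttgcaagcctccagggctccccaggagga
C8a: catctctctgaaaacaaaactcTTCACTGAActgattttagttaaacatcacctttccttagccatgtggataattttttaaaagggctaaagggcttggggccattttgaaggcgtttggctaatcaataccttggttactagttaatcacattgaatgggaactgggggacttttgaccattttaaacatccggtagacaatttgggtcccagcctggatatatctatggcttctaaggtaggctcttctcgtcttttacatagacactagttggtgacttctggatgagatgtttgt
The motifs searched were TTCNNNGAA for STAT proteins, TTGCNNAA for C/EBP proteins, GGNNNTTCC for NF-kappaB, CAAAGTCCA for HNF4 and GTTAATNAT for HNF1. Among all 32851 RefSeq windows, 8.30, 10.8, 18.5, 0.475 and 0.801% held these motifs, in that order. The *C9* window held 1 C/EBP match, TTGCATAA, starting at -132 from the start site, and the *C8a* window held 1 STAT match, TTCACTGAA, starting at -228. Neither the *C6* nor the *C8b* window held any of the 5 motifs, so the windows of the 3 lower genes shared none of them. Outside the windows printed, *C3* had a C/EBP match (TTGCGAAA, starting at -45), *Hc* had an HNF1 match (ATAATTAAC, starting at -77) and *C8g* had none. A match describes letters in a window and is not evidence of binding, and motifs outside these windows were not searched.

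After 3 days of the ketogenic diet, transcripts of 3 of the 6 genes here that encode the membrane attack complex, *C6*, *C8b* and *C9*, were lower than on chow and lower than on the high-fat diet. *Hc*, which encodes C5 and so its first component, was higher than on chow by 1.22-fold, and *C4b* was higher by 1.39-fold. *C3* was higher than on the high-fat diet by 1.21-fold, and *Cfb*, *C8a* and *C8g* passed in no comparison. On the high-fat diet *C4b* and *C9* were higher than on chow. Each result was also computed in 19 alternatives, with other processing or 1 library left out. The falls of *C6*, *C8b* and *C9* passed in 19 of 19 in both comparisons. On the ketogenic diet the rises of *Hc* and *C4b* against chow passed in 16 and 18, and that of *C3* against the high-fat diet in 11. On the high-fat diet those of *C4b* and *C9* passed in 18 and 17. The fitted log2 fold changes and the value in every library are shown in the plots that follow.

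**Figure D1:**
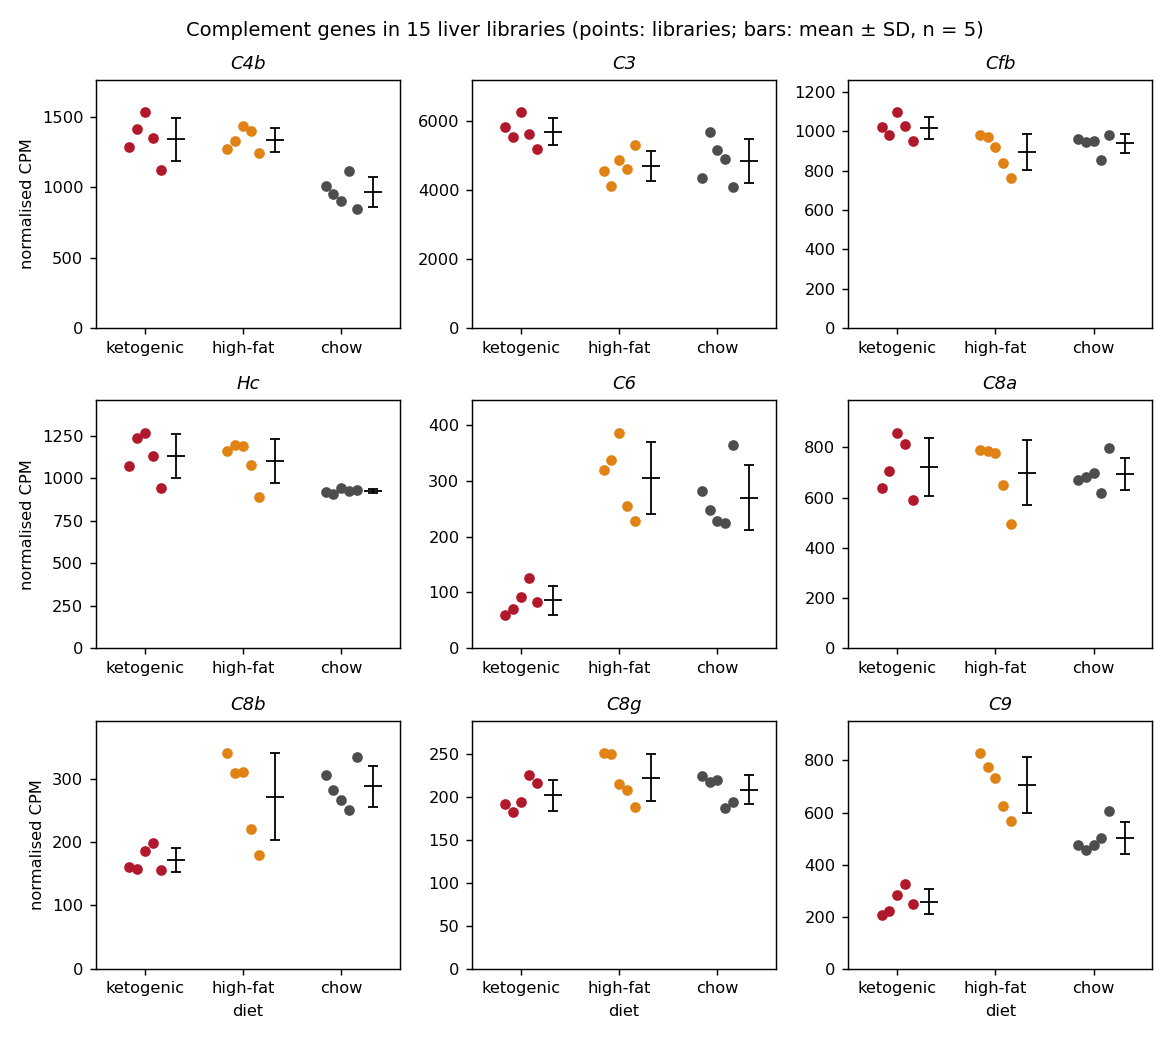
Normalised CPM (reads scaled to the TMM library size, linear axes from 0) of each of the 9 genes in the 5 libraries of each diet, with mean ± SD. The ketogenic points of C6 (59.8 to 125) and C9 (205 to 325) lie below all points of the other diets, and the chow points of C4b (848 to 1119.5) lie below all points of both other diets.

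Between the ketogenic diet and chow, 2 of the 9 genes were higher, 3 were lower and 4 did not pass (edgeR's quasi-likelihood F test, adjusted p under 0.05 by Benjamini-Hochberg over the 13967 genes). Of all genes tested, 16.2% were higher and 14.6% lower in this comparison. The 5 libraries of each diet did not overlap for 5 of the 9 genes, the same 5 that passed, against 22.3% of all genes. Between the high-fat diet and chow, 2 of the 9 genes were higher (background 8.3%) and 0 were lower (background 7.32%), and the 0 held in edgeR at an unadjusted p under 0.05 and in DESeq2. Libraries did not overlap for 1 gene, *C4b*, against 10.3% of all genes. Between the ketogenic and high-fat diets, 1 gene was higher (background 13.1%) and 3 were lower (background 13.0%), and the libraries did not overlap for 2 genes, *C6* and *C9* (background 17.0%). The median log2 fold change of the 9 genes was 0.06, 0.09 and 0.01 in the 3 comparisons, beside -0.01, 0.01 and -0.02 for all genes tested. The comparisons share libraries, so the values of 1 gene in 2 of them are not independent.

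**Figure D2:**
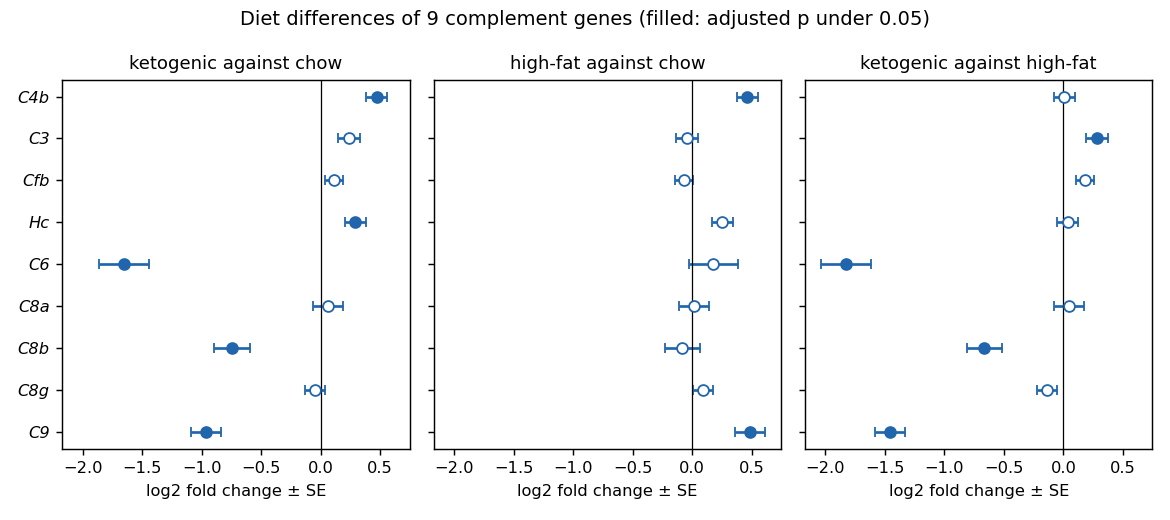
Log2 fold change ± SE of the 9 genes in each of the 3 comparisons from the fit to all 15 libraries (filled points have an adjusted p under 0.05). C6, C8b and C9 are below 0 in both comparisons of the ketogenic diet, and C9 is above 0 (0.49 ± 0.13) in the comparison of the high-fat diet with chow.

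*C4b* (ENSMUSG00000073418.4, chromosome 17, 34728380 to 34743882, minus strand, GRCm38) encodes C4, which is cut in the classical and lectin routes. Its CPM, normalised with TMM library sizes, was 1286, 1415, 1535, 1351 and 1125 on the ketogenic diet (replicates 2, 3, 4, 6 and 8). On the high-fat diet it was 1270.3, 1330.0, 1438, 1402 and 1242 (replicates 9, 10, 11, 12 and 14), and on chow 1013, 955, 904, 1119.5 and 848 (replicates 15 to 19). All 10 libraries of the ketogenic and high-fat diets lay above all 5 chow libraries, although ketogenic replicate 8 and chow replicate 18 were nearly level. The log2 fold change was 0.47 ± 0.088 (SE) for the ketogenic diet against chow (adjusted p = 4.89e-04) and 0.47 ± 0.088 for the high-fat diet against chow (adjusted p = 0.00204). Between the ketogenic and the high-fat diet it was 0.01 ± 0.088 (adjusted p = 0.965). The rise on the ketogenic diet was 0.13 (adjusted p = 0.215) when the gene's average effective length, the length kallisto divides by, was taken into the fit, and the rise on the high-fat diet was 0.32 (adjusted p = 0.149) in limma on log2(TPM + 0.5). *C4a*, a near-identical copy 65.2 kb away, was not analysed here, so reads of the 2 genes could not be told apart and the *C4b* values are uncertain to that extent.

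The transcripts that made up the *C4b* sum differed between diets. C4b-201, the coding transcript of 41 exons, carried 94.4 to 96.6% of the gene's reads on the ketogenic diet, 91.9 to 93.3% with the high-fat diet and 85.3 to 92.3% on chow. C4b-203, a transcript of 749 bases that retains an intron, carried 2.26 to 4.51% on the ketogenic diet, 5.68 to 6.83% with the high-fat diet and 6.37 to 13.1% on chow. The ketogenic libraries thus held the smallest share of the retained intron and the ranges of the ketogenic diet and chow did not meet. A lower share of a short transcript was not particular to *C4b*. On the ketogenic diet and chow C8a-204 carried 3.54 to 5.38% and 6.06 to 11.3% of its gene's reads. Hc-202 carried 1.42 to 1.98% and 2.08 to 2.78%, and C3-203 3.41 to 4.56% and 4.88 to 6.24%. Hc-205 and Cfb-204 were also lower on the ketogenic diet, with no overlap. C3-202, also short, went the other way (2.33 to 2.62% and 1.61 to 2.19%). Why the shares differed was not tested. With reads of C4b-201 alone, an alternative added after the data were seen, the log2 fold change against chow was 0.55 (adjusted p = 2.70e-04) for the ketogenic diet and 0.50 (adjusted p = 0.00224) for the high-fat diet.

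*C3* (ENSMUSG00000024164.15, chromosome 17, 57203970 to 57228136, minus strand) encodes the protein at which all routes meet, and it was the most abundant of the 9. The libraries gave a normalised CPM of 5851, 5537, 6270.1, 5638 and 5207 on the ketogenic diet, 4554, 4111, 4891, 4629.7 and 5312 with the high-fat diet, and 4368, 5686, 5161, 4913 and 4090.2 on chow. The ketogenic libraries overlapped with high-fat replicate 14 and with chow replicate 16, the highest of their diets. *C3* was higher on the ketogenic than on the high-fat diet (log2 fold change 0.28 ± 0.093, adjusted p = 0.0339). That call was lost without any 1 of ketogenic replicates 2, 3 and 4 or high-fat replicates 9, 10, 11 and 12 (adjusted p 0.0510 to 0.0899) and with the effective-length term (0.0709). Against chow the values were 0.24 ± 0.093 for the ketogenic diet (adjusted p = 0.0628) and -0.04 ± 0.093 for the high-fat diet (adjusted p = 0.800). The first of these passed in 5 of 19 alternatives, among them DESeq2 (adjusted p = 0.0329) and the fit without chow replicate 16 (0.0237).

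*Cfb* (ENSMUSG00000090231.10, chromosome 17, 34856374 to 34862518, minus strand) encodes factor B, the protease of the alternative route. Normalised CPM was 1023, 982, 1097, 1028 and 947 on the ketogenic diet, 979, 970.1, 919, 837 and 762 with the high-fat diet, and 961, 943, 950.2, 854 and 982 on chow. The ranges of all 3 diets overlapped. *Cfb* did not pass for the ketogenic diet against chow (log2 fold change 0.11 ± 0.075, adjusted p = 0.271), for the high-fat diet against chow (-0.07 ± 0.075, adjusted p = 0.571) or for the ketogenic against the high-fat diet (0.18 ± 0.075, adjusted p = 0.0778). The last of these passed in 5 of 19 alternatives, with a smallest adjusted p of 2.06e-04. *C2*, which encodes the corresponding protease of the classical route and lies 85 bases from *Cfb*, was at a mean of 86.1, 91.3 and 86.4 CPM on the ketogenic, high-fat and chow diets and also did not pass (log2 fold change -0.01 ± 0.099 for the ketogenic diet against chow, adjusted p = 0.972). *Cfb* overlaps a predicted readthrough gene, *Gm20547*, to which 964 to 2286 reads per library were assigned, beside 25184 to 51746 for *Cfb*, so part of its reads may be assigned elsewhere.

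*Hc* (ENSMUSG00000026874.10, chromosome 2, 34983331 to 35061438, minus strand) encodes C5, whose cleavage starts the terminal pathway. Libraries of the ketogenic diet had a normalised CPM of 1072, 1238, 1268, 1128 and 945, those of the high-fat diet had 1159, 1193, 1189, 1079 and 889, and those of chow had 919.7, 909, 943, 924 and 930.1. The chow libraries lay close together (SD 12.5), and the lowest ketogenic library, replicate 8, was just above the highest of them. The rise on the ketogenic diet against chow was 0.29 ± 0.088 (adjusted p = 0.0180), and the value for the high-fat diet against chow was 0.25 ± 0.088 (adjusted p = 0.0589). The latter passed in 4 of 19 alternatives, which were DESeq2 (adjusted p = 0.0387), total-count scaling (0.0426), main transcripts alone (0.0491) and the fit without high-fat replicate 14 (0.0132). Between the ketogenic and high-fat diets the log2 fold change was 0.04 ± 0.088 (adjusted p = 0.794). The rise on the ketogenic diet was lost without ketogenic replicate 3 (adjusted p = 0.0537) or 4 (0.0540), and with the effective-length term the value was -0.01 (adjusted p = 0.937).

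*C6* (ENSMUSG00000022181.16, chromosome 15, 4727175 to 4814967, plus strand) encodes the first protein that joins C5b, and it had the largest difference of the 9 in both comparisons of the ketogenic diet. Its normalised CPM was 59.8, 70.0, 91.3, 125 and 82.2 on the ketogenic diet, 319, 336, 386, 254 and 228 with the high-fat diet, and 282, 248, 228, 224 and 364 on chow. All 5 ketogenic libraries were below all 10 others, with ketogenic replicate 6 the highest of its diet. *C6* fell 3.14-fold against chow (log2 fold change -1.65 ± 0.21, adjusted p = 4.91e-05) and 3.55-fold against the high-fat diet (-1.83 ± 0.21, adjusted p = 3.88e-05). The value for the high-fat diet against chow was 0.18 ± 0.20 (adjusted p = 0.604). The fall passed in 19 of 19 alternatives in both comparisons, with log2 fold changes of -1.83 to -1.33 against chow and -2.00 to -1.50 against the high-fat diet. In bulk tissue, fewer cells of a type and less RNA per cell cannot be told apart, here or in any result below.

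*C8b* (ENSMUSG00000029656.13, chromosome 4, 104766317 to 104804548, plus strand) encodes the beta chain of C8, which binds to the growing complex. The normalised CPM values were 160.2, 158, 186, 198 and 156 on the ketogenic diet, 341, 308, 311, 220.3 and 179 with the high-fat diet, and 306, 283, 267, 250.1 and 334 on chow. The ketogenic libraries were below all chow libraries, while high-fat replicate 14 fell within the ketogenic range. *C8b* was lower on the ketogenic diet by 1.68-fold against chow (log2 fold change -0.75 ± 0.15, adjusted p = 0.00134) and by 1.58-fold against the high-fat diet (-0.66 ± 0.15, adjusted p = 0.00454). The high-fat diet against chow gave -0.08 ± 0.15 (adjusted p = 0.757). Both falls passed in 19 of 19 alternatives, from -0.81 to -0.43 against chow and from -0.78 to -0.30 against the high-fat diet, with the smallest values in limma on log2(TPM + 0.5), a scale on which the median of all genes was 0.24 higher on the ketogenic diet in each comparison.

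*C8a* (ENSMUSG00000035031.15, chromosome 4, 104815679 to 104876398, minus strand) encodes the alpha chain, which enters the membrane, and its 3′ end faces that of *C8b* across 11.13 kb. Its normalised CPM was 639.6, 706, 859, 814 and 589.7 on the ketogenic diet, 791, 785, 776, 649 and 496 with the high-fat diet, and 668, 683, 696, 620.1 and 795 on chow. The 3 diets overlapped throughout. The log2 fold change was 0.06 ± 0.13 for the ketogenic diet against chow (adjusted p = 0.763) and 0.05 ± 0.13 against the high-fat diet (adjusted p = 0.822), and 0.01 ± 0.13 for the high-fat diet against chow (adjusted p = 0.958). The first of these was -0.12 to 0.26 over the alternatives and passed in 0 of 19. The second was -0.06 to 0.31 and passed in 1 of 19.

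*C8g* (ENSMUSG00000015083.11, chromosome 2, 25498651 to 25501719, minus strand) encodes the gamma chain, a small lipocalin joined to the alpha chain. In CPM the values were 191, 183, 194, 225 and 216 on the ketogenic diet, 251, 249.6, 216, 208 and 189 with the high-fat diet, and 224, 218, 219, 187 and 194 on chow. Here too the diets overlapped. It gave -0.05 ± 0.085 for the ketogenic diet against chow (adjusted p = 0.719), -0.14 ± 0.085 against the high-fat diet (adjusted p = 0.238) and 0.09 ± 0.085 for the high-fat diet against chow (adjusted p = 0.491). On the TPM scale in limma the first of these was 0.25 with an adjusted p of 0.0417, and so of the other sign.

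*C9* (ENSMUSG00000022149.17, chromosome 15, 6445327 to 6498751, plus strand) encodes the protein that polymerises into the pore, and it was the 1 gene of the 9 that passed in all 3 comparisons. Its normalised CPM was 205, 223, 283, 325 and 249 on the ketogenic diet, 829, 773, 734, 625 and 568 with the high-fat diet, and 476, 454, 476, 501 and 607 on chow. The ketogenic libraries were below all others, and the high-fat and chow ranges met only where high-fat replicate 14 lay below chow replicate 19. *C9* fell 1.96-fold against chow (log2 fold change -0.97 ± 0.13, adjusted p = 1.86e-05) and 2.75-fold against the high-fat diet (-1.46 ± 0.13, adjusted p = 5.89e-07). It rose 1.40-fold on the high-fat diet against chow (0.49 ± 0.13, adjusted p = 0.0138). Both falls passed in 19 of 19 alternatives, from -1.18 to -0.86 against chow and from -1.55 to -1.20 against the high-fat diet. The rise on the high-fat diet passed in 17 of 19 and was lost with the effective-length term (0.35, adjusted p = 0.122) and in limma on log2(TPM + 0.5) (0.34, adjusted p = 0.0830).

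**Figure D3:**
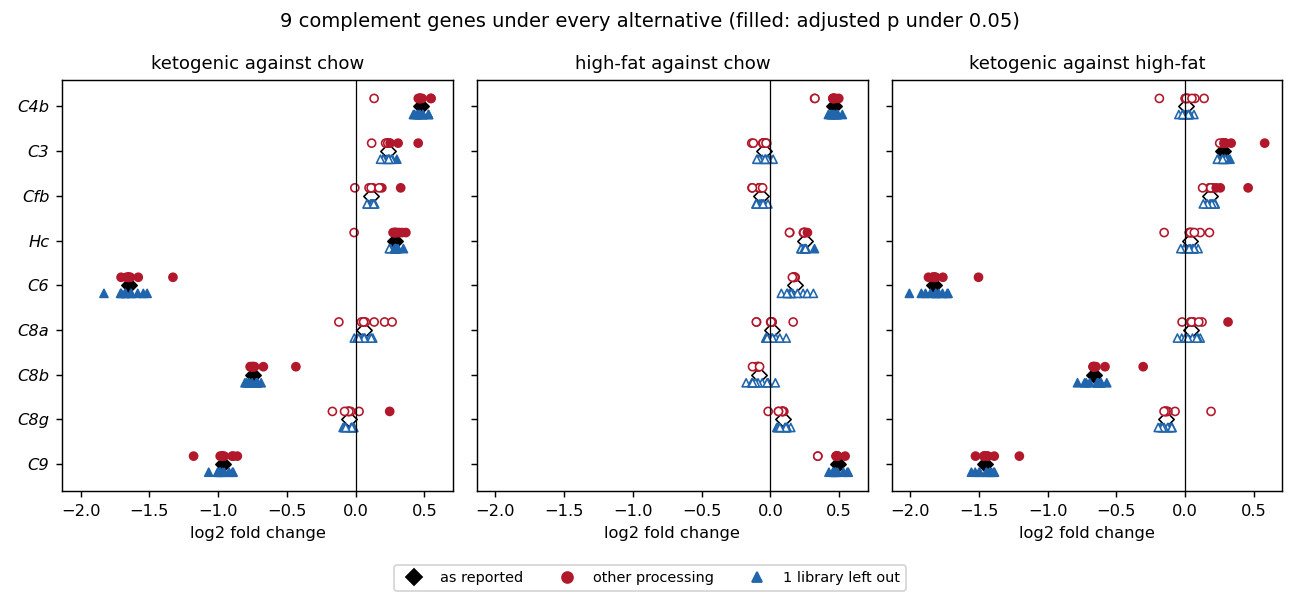
Log2 fold change of each gene as reported (diamonds), under 9 other ways of processing (circles) and with 1 library left out (triangles), filled where the adjusted p is under 0.05. All symbols of C6, C8b and C9 in the 2 comparisons of the ketogenic diet are filled and below 0, while those of C3, Cfb and Hc are filled only in part.

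The *Mup* share of the reads, lower on the ketogenic diet, was also set beside *C6*, *C8b* and *C9* within the diets. Ketogenic replicate 6 had the highest *Mup* share of its diet (6.03%) and the highest *C6*, *C8b* and *C9*. Chow replicate 19 had the highest *Mup* share of its diet (14.5%) and the highest values of all 3 genes there. High-fat replicate 14 had the lowest *Mup* share of its diet (7.71%) and the lowest values of all 3 genes there. Other members shared these extremes, among them *C8a*, *C8g* and *Cfb*, which passed in no comparison. High-fat replicate 14 was also the lowest of its diet for *C8a*, *C8g*, *Cfb*, *C4b* and *Hc*, but the highest for *C3*. Chow replicate 19 was the highest of its diet for *C8a* and *Cfb*, and ketogenic replicate 6 for *C8g*. These extremes were therefore not particular to *C6*, *C8b* and *C9*. The orders did not match throughout. High-fat replicate 10 had the highest *Mup* share of its diet (14.4%) but not the highest *C6*, *C8b* or *C9*. Chow replicate 18 had the lowest share of its diet (8.40%) and the second highest *C9* there (501 CPM), and ketogenic replicate 8 had the second highest share (5.06%) and the lowest *C8b* (156 CPM). What the *Mup* share is a sign of, and its part in the differences between diets, was not tested. Without ketogenic replicate 6 the log2 fold changes against chow were -1.83, -0.81 and -1.07 for *C6*, *C8b* and *C9*. With TMM factors and library sizes computed without *Mup* and mitochondrial genes all 3 genes passed in both comparisons. Only the scaling differs in that setting. Over all genes it gave 2211 higher and 2097 lower against chow, beside 2258 and 2038 as reported. It therefore cannot show whether these 3 genes and the *Mup* genes change together.

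*C7*, the component of the complex that joins after C6, lies between *C6* and *C9* on chromosome 15 (4988762 to 5063740, 174 kb from *C6*). It was at a mean of 0.764, 0.629 and 0.789 CPM on the ketogenic, high-fat and chow diets, far below the other terminal components, and its log2 fold change against chow was -0.04 ± 0.32 on the ketogenic diet (adjusted p = 0.949).

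Levels per length were compared between the genes as gene TPM, the sum of the authors' transcript TPM over a gene's transcripts, which is scaled by transcript length and depth. On chow the order was *C3* (1946 ± 428, SD, n = 5), *Cfb* (639 ± 23.1), *C9* (393 ± 29.7), *Hc* (341 ± 17.7), *C4b* (317 ± 29.7), *C8a* (289.7 ± 26.9), *C8g* (271 ± 32.8), *C8b* (143 ± 5.97) and *C6* (104 ± 12.4). The ranges of neighbours from *C9* to *C8g* in this order overlapped, and those of the other neighbours did not. On the high-fat diet *C9* was again the third, at 499.7 ± 38.4 TPM. On the ketogenic diet *C9* was the seventh, at 219 ± 39.4 TPM, below *C8g* at 321 ± 14.6 and above *C8b* at 106 ± 11.9, with no overlap on either side. *C6* was the lowest on all 3 diets, at 42.0 ± 10.6 TPM on the ketogenic diet, 118 ± 15.9 with the high-fat diet and 104 ± 12.4 on chow, although on the high-fat diet its range overlapped with that of *C8b*. These levels include short transcripts that hold few reads but weigh more in TPM. On chow C3-201 alone was at 975 ± 204 TPM, Cfb-206 at 296 ± 27.3, C9-201 at 264 ± 24.7, C4b-201 at 172 ± 34.4 and Hc-201 at 169 ± 16.4, each below the level of its gene, and C8a-202, which holds 59.0 to 75.7% of the *C8a* reads, was at 129 ± 11.1. With the main transcript of each gene alone, an alternative added after the data were seen, the order on chow was *C3*, *Cfb*, *C9*, *C8g*, *C4b*, *Hc*, *C8b*, *C8a* and *C6*, and neighbours overlapped except for *C3* and *Cfb*, *C9* and *C8g*, and *C8a* and *C6*. C9-201 was then the third on chow, the second on the high-fat diet (382 ± 21.1 TPM) and the seventh on the ketogenic diet (178 ± 26.1), where it overlapped with C8g-201 but not with C8b-201. C6-204 was again the lowest on all 3 diets.

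Since C8 holds its 3 chains in equal number, the levels of the 3 genes were set against each other within each library, where a common scaling drops out. The ratio of *C8b* to *C8a* in TPM was 0.347, 0.286, 0.300, 0.317 and 0.340 on the ketogenic diet, 0.548, 0.487, 0.518, 0.435 and 0.455 with the high-fat diet, and 0.553, 0.532, 0.462, 0.4996 and 0.444 on chow. The highest ketogenic ratio was thus below the lowest ratio of either other diet. The ratio of *C8g* to *C8a* was 0.809 to 1.19, 0.891 to 1.23 and 0.665 to 1.07 on the ketogenic, high-fat and chow diets, which overlapped. The ratio of *C6* to *C9* was 0.179 to 0.222 on the ketogenic diet, below the chow range of 0.232 to 0.290, and overlapped with the high-fat range of 0.202 to 0.302. For *C3* to *C4b* the ranges were 5.52 to 6.44, 3.90 to 5.51 and 4.70 to 8.10, and those of the ketogenic and high-fat diets did not overlap. With main transcripts alone the ratio of *C8b* to *C8a* was 0.485 to 0.612, 0.856 to 0.996 and 0.942 to 1.22 on the ketogenic, high-fat and chow diets, again lowest on the ketogenic diet with no overlap. On the TPM scale neither part of that ratio overlapped with chow. C8b-201 was at 90.9 to 121 TPM on the ketogenic diet and 136 to 150 on chow, and C8a-202 at 149 to 250 and 119 to 145. In log2 TPM the median of all genes was also 0.24 higher on the ketogenic diet than on chow. In the fits *C8a* passed against chow in 0 of 19 alternatives, among them reads of C8a-202 alone, so a rise of *C8a* is not shown. The ratio of *C6* to *C9* was then 0.179 to 0.242 on the ketogenic diet, below the 0.257 to 0.331 of the high-fat and the 0.304 to 0.420 of the chow libraries. For *C3* to *C4b* the ketogenic range, 4.25 to 5.07, then overlapped with the high-fat range, 3.43 to 4.76. These ratios are descriptions of transcript levels, with no test, and do not give the amounts of protein.

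**Figure D4:**
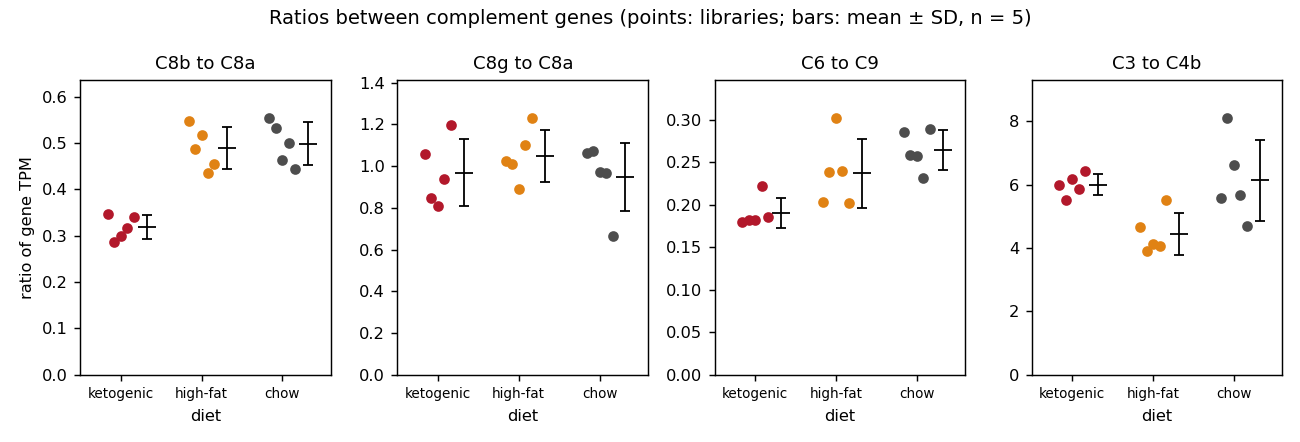
Ratio of gene TPM between 4 pairs of complement genes in each library (points, linear axes from 0), with mean ± SD for the 5 libraries of each diet. The ratio of C8b to C8a is 0.286 to 0.347 on the ketogenic diet and 0.435 to 0.553 on the other diets, while the ratio of C8g to C8a overlaps between diets.

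The reads of *C6*, *C8b* and *C9* came mainly from 1 transcript each. C8b-201 held 98.9 to 100% of the reads of its gene, C9-201 held 88.4 to 97.0% and C6-204 held 84.6 to 94.6%. With the reads of these transcripts alone the log2 fold changes on the ketogenic diet against chow were -1.71 for *C6*, -0.74 for *C8b* and -0.89 for *C9*. In *C9* the share of the short transcript C9-204 was 2.36 to 5.24% on the ketogenic diet, 3.44 to 8.36% with the high-fat diet and 6.01 to 11.1% on chow. C6-201, a shorter coding transcript, held 3.01 to 12.9% of *C6* reads on the ketogenic diet and 2.15 to 3.79% on chow, ranges that overlapped. The average effective length of *C4b*, weighted by the TPM of its transcripts as in the effective-length term, was a mean of 4091, 3778 and 3407 bases on the ketogenic, high-fat and chow diets. That of C4b-201 alone was 5497, 5805 and 5723 bases, so the order of the diets was not the same for the gene as for its main transcript. The short C4b-203 was at a mean of 92.2 TPM on the ketogenic diet, where C4b-201 was at 312, and at 122 TPM on chow, where C4b-201 was at 172. The origin of these lengths is not stated in the labels or file headers.

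The genes whose pattern over the 15 libraries was most like that of each changed gene were found among 8831 genes with a mean of at least 5 CPM, by the root mean square difference of log2 CPM centred on each gene's mean. For *C6*, whose own SD over the libraries was 0.89, they were *Lama3*, a laminin chain (0.21), *Mup3* (0.27) and *Ttc39c* (0.32). For *C8b* (SD 0.40) they were *Serpina3k*, a serine protease inhibitor (0.15), *Slc22a30*, a member of an organic anion transporter family (0.17), and *Mup22* (0.18). For *C9* (SD 0.64) they were *Dpy19l3* (0.21), *Ttc39c* again (0.25) and the mitochondrially encoded *mt-Cytb* (0.28). *Ttc39c* was at a mean of 170.1, 416 and 387 CPM on the ketogenic, high-fat and chow diets, and *Serpina3k* at 6812, 10969 and 10632. *Mup3* and *Mup22* belong to a family of near-identical copies, as does *Serpina3k*, and their values one by one are uncertain. For *C4b* (SD 0.26) the most like were *Drosha* (0.099), *Sec16a* (0.0998) and *Pde4dip* (0.11), and for *Hc* (SD 0.18) *Homer2* (0.085) and *Sel1l* (0.098).

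A list of 48 other complement genes was examined in the same fit, of which 46 were found in the files and 42 passed the filter on low counts. Between the ketogenic diet and chow 5 of the 42 were higher (background 16.2%), 3 were lower (background 14.6%) and 34 did not pass, with a median log2 fold change of 0.01. Between the ketogenic and high-fat diets 7 were higher (background 13.1%), 5 lower (background 13.0%) and 30 did not pass (median 0.13). Between the high-fat diet and chow 2 were higher (background 8.3%), 2 lower (background 7.32%) and 38 did not pass (median -0.08). The numbers of higher and lower genes were 16 and 2, 21 and 0, and 0 and 0 in limma on TPM, in the same order of comparisons. Over all 13967 genes limma on TPM gave 4820 and 351, 4953 and 204, and 123 and 354. Total-count scaling gave 10 higher between the ketogenic diet and chow and 11 between the ketogenic and high-fat diets, and 6 were lower between the ketogenic diet and chow in the fit to only these 2 diets.

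Among the 13 tested genes that start the classical and lectin routes, *Mbl2*, which encodes a mannose-binding lectin, was lower on the ketogenic diet, at a mean of 124 CPM against 182 with the high-fat diet and 203 on chow. Its log2 fold change was -0.71 ± 0.091 against chow (adjusted p = 1.12e-05) and -0.55 ± 0.091 against the high-fat diet (adjusted p = 2.65e-04, lost in limma on TPM). *Mbl1*, the other mannose-binding lectin, was higher on the ketogenic than on the high-fat diet (0.37 ± 0.083, adjusted p = 0.00354). The 2 mannose-binding lectins thus moved in opposite directions in that comparison. The collectins *Colec11* (0.36 ± 0.095) and *Colec10* (0.39 ± 0.14) rose against chow, the latter in 11 of 19 alternatives, and the ficolin *Fcna* (0.51 ± 0.12) and *C1qb* (0.50 ± 0.15), a chain of C1q made by macrophages, rose against the high-fat diet. In that comparison 4 of 13 Kupffer cell and macrophage markers, *C1qb* among them, were also higher (background 13.1%), and their part was not tested. The other 7 of these genes, which encode the other C1q chains and the C1r, C1s and MASP proteases, passed in neither comparison.

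Of 10 tested regulators in plasma, *Cfi*, which encodes factor I, the protease that inactivates C3b, was higher on the ketogenic diet. *Cfi* rose by 0.20 ± 0.066 against chow (adjusted p = 0.0307) and by 0.21 ± 0.066 against the high-fat diet (adjusted p = 0.0277). The *Cfi* calls were lost in 6 of 19 alternatives against chow, each of which left out 1 library, and in 7 of 19 against the high-fat diet. *Cfhr2* fell by 0.28 ± 0.084 against chow, with the sign turned in limma on TPM. *Cpn2*, a subunit of the carboxypeptidase that clips C3a and C5a, rose against chow on both the ketogenic diet (0.26 ± 0.068) and the high-fat diet (0.36 ± 0.068). *Clu*, which encodes clusterin, an inhibitor of the membrane attack complex, was lower on the ketogenic than on the high-fat diet (-0.25 ± 0.076), again with the sign turned in limma on TPM. *Clu* was at -0.0048 ± 0.076 on the ketogenic diet against chow (adjusted p = 0.969) and rose on the high-fat diet against chow (0.24 ± 0.076, adjusted p = 0.0379, in 7 of 19 alternatives). Also on the high-fat diet against chow, *Cpn1* was lower (-0.21), and it is named after its values were seen.

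Of 7 tested regulators on cell membranes, *Cd59a*, which blocks the pore at the step of C9, rose on the ketogenic diet against chow (0.29 ± 0.070, adjusted p = 0.00405, in 19 of 19 alternatives). *Susd4*, another complement inhibitor, fell (-0.83 ± 0.19, adjusted p = 0.00454). Against the high-fat diet *Cd55* was higher (0.57 ± 0.17) and *Cd59b* (-0.43 ± 0.14) and *Susd4* (-0.64 ± 0.19) lower. Of 8 tested receptors and binding proteins, 0 passed against chow by edgeR on the ketogenic diet, where *C3ar1* alone had an unadjusted p under 0.05. DESeq2 also called 0, and limma on TPM called 1 higher. *Vsig4* (0.37 ± 0.11), a receptor for C3b on Kupffer cells, and *C1qbp* (0.18 ± 0.058) were higher on the ketogenic than on the high-fat diet, *Vsig4* being another of those 4 macrophage markers.

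**Figure D5:**
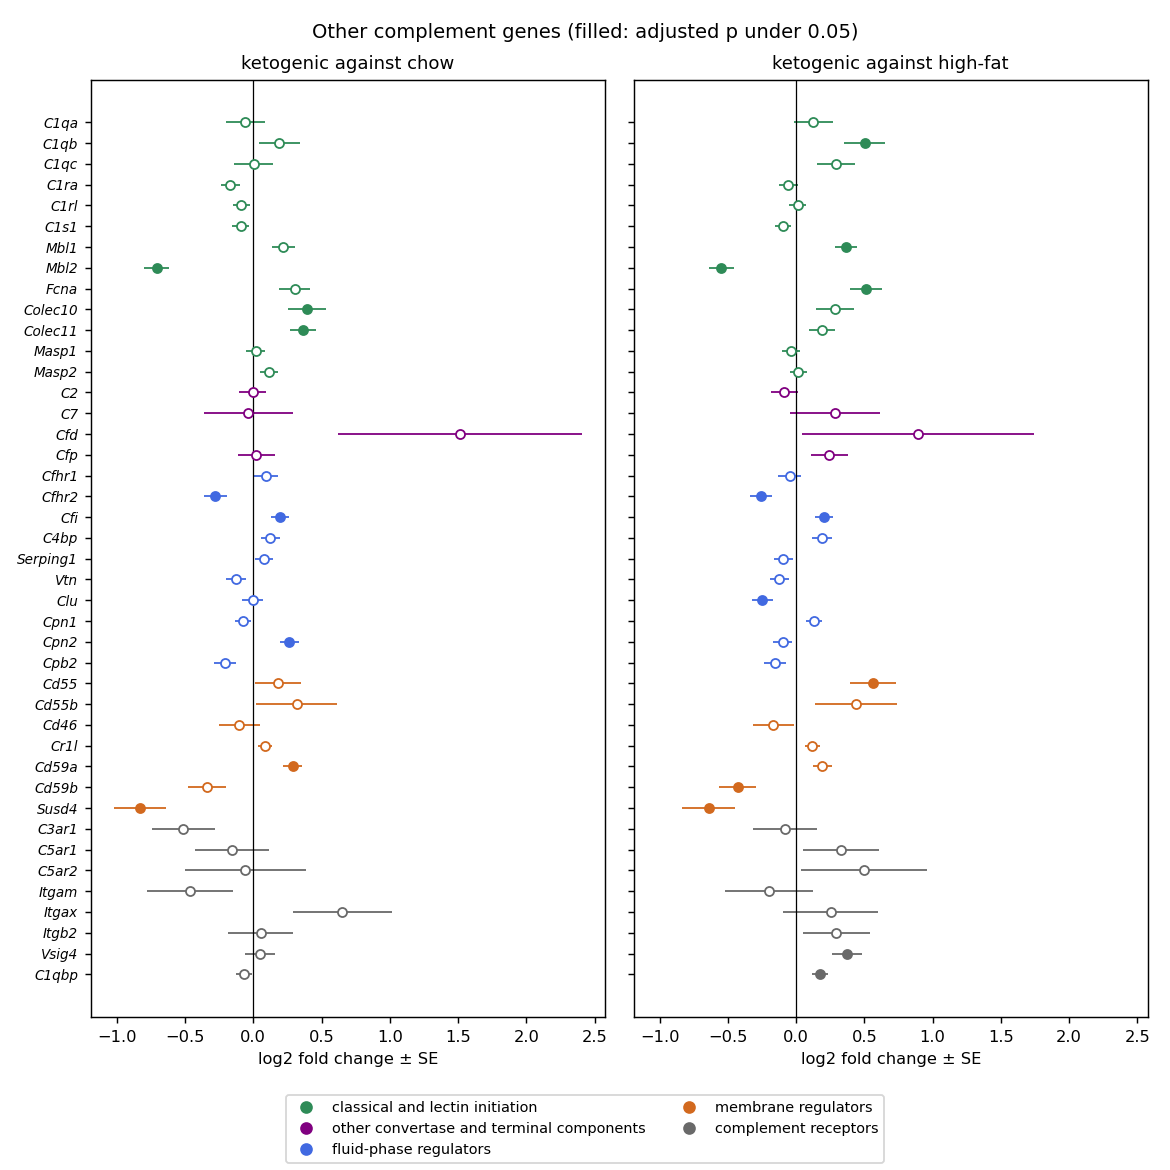
Log2 fold change ± SE of 42 other complement genes, coloured by role, for the ketogenic diet against chow and against the high-fat diet (filled points have an adjusted p under 0.05). Mbl2 and Susd4 lie below 0 in both panels, and Cfi lies above 0 in both.

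Hepatocyte acute phase genes were examined because many complement genes belong to that response. Of 21 genes, 11 rose and 3 fell on the ketogenic diet against chow, 8 rose and 1 fell on the high-fat diet against chow, and 6 rose on the ketogenic against the high-fat diet. Of all genes tested, 16.2% rose and 14.6% fell, 8.3% rose and 7.32% fell, and 13.1% rose and 13.0% fell in these comparisons. The genes that fell, named after their values were seen, were *Orm1*, *Fgb* and *Fgg* on the ketogenic diet and *Apcs* on the high-fat diet. The 3 falls on the ketogenic diet were 1 with total-count scaling, 1 with no low-count filter and 0 in limma on TPM, where *Fgb* and *Fgg* had the other sign, and the fall of *Orm1* passed in 11 of 19 alternatives. The 1 fall on the high-fat diet was 0 with no filter and in the fit to only the 2 diets compared. Rises on the high-fat diet numbered 4 in limma on TPM and 11 in DESeq2, and rises on the ketogenic against the high-fat diet numbered 12 in limma on TPM. *Saa4*, a serum amyloid, was at a mean of 591, 564 and 229 CPM on the ketogenic, high-fat and chow diets. *Serpina3n*, a protease inhibitor, rose by 1.10 ± 0.11 on the ketogenic diet and by 0.73 ± 0.11 on the high-fat diet against chow, and *Hp*, which encodes haptoglobin, by 0.66 ± 0.082 and 0.34 ± 0.081. *Saa1*, a classical marker of the response, was at 1.75 ± 0.63 (adjusted p = 0.0541) on the ketogenic and 2.42 ± 0.64 (adjusted p = 0.0249) on the high-fat diet against chow, and *Saa2* at 1.49 ± 0.83 (adjusted p = 0.200) and 2.04 ± 0.83 (adjusted p = 0.117). Of 14 genes of IL-6, IL-1 and STAT3 signalling, 7 rose and 1, *Rela*, fell on the ketogenic diet against chow (-0.19 ± 0.066, lost in 11 of 19 alternatives and of the other sign in limma on TPM). *Il6ra*, the IL-6 receptor, rose by 1.27 ± 0.30 (adjusted p = 0.00669) and *Stat3* by 0.44 ± 0.12 (adjusted p = 0.00789), while *Socs3*, a target of that pathway, was at 0.22 ± 0.34 (adjusted p = 0.681).

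The hepatocyte list had by far the highest summed level of the marker lists. Of its 14 markers, 13 were matched by symbol, none of them at 0 in all libraries, which was also true of every other list. Summed levels of marker lists are given as CPM scaled by total count, not with TMM. For hepatocyte markers the sum was 106117 to 112671 CPM on the ketogenic diet, 91905 to 93506 with the high-fat diet and 89318 to 106308 on chow. On that scale the ketogenic libraries overlapped with chow by a narrow margin and lay above the high-fat diet. In the TMM fit, 4 of the 13 markers were higher (background 13.1%) and 2 lower (background 13.0%) on the ketogenic than on the high-fat diet. The median log2 fold change of the list was -0.03 there. Of the 13 markers, *Apob*, *Apoh* and *Hpd* were higher and *Ttr* was lower on the ketogenic diet against chow (*Apoh* is named after its values were seen). Summed B and plasma cell markers (8 of 8 found) were 3.55 to 4.65 CPM on the ketogenic diet, 4.56 to 9.71 with the high-fat diet and 5.85 to 16.3 on chow. Of 7 tested, 6 fell on the ketogenic diet against chow (3 in limma on TPM), where 14.6% of all genes fell. Summed erythroid markers (6 of 6 found) were 358 to 554, 366 to 1131 and 731 to 1077 CPM, and 5 of 5 tested, the *Hba-a1*, *Hba-a2*, *Hbb-bs*, *Hbb-bt* and *Alas2* genes, fell in that comparison (the *Hbb* genes are named after their values were seen). Kupffer cell and macrophage markers (13 of 13 found) summed to 182 to 291, 142 to 266 and 183 to 225 CPM and overlapped between all diets. In the test of single genes, 4 of these 13 were higher (background 13.1%) and 0 were lower (background 13.0%) on the ketogenic than on the high-fat diet, where the median log2 fold change of the list was 0.36. Against chow 1 was higher (background 16.2%) and 1 lower (background 14.6%). The 4 were *C1qb* and *Vsig4*, which also belong to the complement lists, *Cd163* and *Cd5l*, the last of which is named after its values were seen. No marker of any list was at 0 in all libraries. The part of these cells in the results was not tested.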

How the data were processed

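Mouse liver RNA had been sequenced. The submitters' processing notes name the genome build GRCm38.p6 and the tools kallisto 0.44, Trimmomatic 0.36 and edgeR 3.28, but no settings. Per the file headers, the deposited tables give an estimated count, a TPM and 2 lengths for each of 106332 transcripts. Estimated counts were summed per gene with GENCODE M21, which matched 105734 transcripts to 25731 genes, and rounded. The other 598 transcripts (0.184 to 0.223% of reads) were left out. No source used here states the authors' annotation release.

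Genes were filtered with filterByExpr (minimum count 10, total 15). The edgeR 4.0.16 quasi-likelihood F test with TMM scaling and robust dispersion was fitted to all 15 libraries (residual degrees of freedom 12, common biological coefficient of variation 0.1306), with Benjamini-Hochberg adjustment over 13967 genes and 0.05 as the threshold. An adjusted p with no tool named beside it is from this fit. SEs were derived from the F statistic. The code was tested on simulated data. Alternatives were DESeq2 1.42.0, limma 3.58.1 on log2(TPM + 0.5), other scalings, filters and libraries, and an offset from effective length. Reads of each gene's main transcript alone were added after the data were seen. R 4.3.3, pandas 2.3.3, matplotlib 3.10.9 and Python 3.11.15 were also used.

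The 9 genes and all gene lists were chosen with earlier results of these data known. From each other list, up to 3 genes with the smallest adjusted p in each comparison of the ketogenic diet were named, with C7, C2, Cfi, Il6ra, Stat3, Socs3, Saa1 and Saa2 whatever their p. A gene of the list of other complement genes, left out of its counts, and a gene by likeness to Hc are not reported here. The labels give no batch, and label numbers do not recur between diets. Sequences are from RefSeq (GRCm38.p6).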

Additional observations from a re-analysis of the deposited data

Results flagged for a closer look

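In 2 of 39 sets of 5 libraries examined, 1 library stood apart from the other 4 by Dixon's test (critical value 0.71), which chance alone gives in about 1 of 20 sets. The ratio of *C8g* to *C8a* in TPM was 0.665 in chow replicate 19, against 0.966 to 1.07 in the other chow libraries. That library also had the highest normalised CPM of *C8a* on chow, at 795. The ratio of *C6* to *C9* was 0.222 in ketogenic replicate 6, against 0.179 to 0.186 in the other ketogenic libraries. That library also had the highest *C6* and *C9* of its diet.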

How the results depend on the processing

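The falls of *C6*, *C8b* and *C9* on the ketogenic diet kept their direction and passed in all 19 alternatives of both comparisons. The number of the 9 genes called higher was less stable. For the ketogenic diet against chow (2 as reported) it was 4 with total-count scaling, 0 with the effective-length offset, 5 with limma on TPM and 1 to 3 with 1 library left out. Over all genes the numbers called higher were 2258 as reported and 2753, 1984, 4820 and 1950 to 2178 in these settings, in the same order. For the high-fat diet against chow (2) it was 1 with the offset, 0 with limma on TPM, and 3, with *Hc*, in DESeq2, with total-count scaling, with main transcripts alone and without high-fat replicate 14. Over all genes the numbers called higher were 1159 as reported and 741, 123, 1258, 787, 1160 and 900, in the same order. For the ketogenic against the high-fat diet (1) it was 2 with DESeq2, with total-count scaling and with main transcripts alone, 0 with the offset, 3 with limma on TPM and 0 to 1 with 1 library left out. Over all genes the numbers called higher were 1826 as reported and 2072, 2305, 1827, 1590, 4953 and 1479 to 1982, in the same order. With the offset *Hc* on the ketogenic diet against chow turned to -0.011, and with limma on TPM *C8g* turned to 0.25. Over all genes, total-count scaling left 1265 lower genes for the ketogenic diet against chow and 960 against the high-fat diet. The offset left 741 higher genes for the high-fat diet against chow, and leaving out 1 library gave 681 to 1313 lower genes, the fewest without chow replicate 15. Limma on TPM gave 4820 higher and 351 lower genes for the ketogenic diet against chow, 123 and 354 for the high-fat diet against chow, and 4953 and 204 for the ketogenic against the high-fat diet, and 93.2, 25.8 and 96.0% of its calls were higher. The cause of these shifts was not tested. Summing *C4a* with *C4b* was not run because *C4a* was not analysed here. No paired analysis was possible because label numbers do not recur between diets. At 2533 or more reads for each of the 9 genes in each library, the spread between libraries, more than read number, limits precision. Protein was not measured, and 1 time point was sampled.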

Other observations

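Regulators of liver gene expression that the report does not describe were read from the same fit. Of 15 liver transcription factors, 4 were higher on the ketogenic diet against chow (background 16.2%). *Ppara*, the fatty acid receptor that drives fat oxidation, was at a mean of 142, 82.7 and 52.1 CPM on the ketogenic, high-fat and chow diets (log2 fold change 1.45 ± 0.12 for the ketogenic diet and 0.67 ± 0.12 for the high-fat diet, each against chow). Its partner *Rxra* rose by 0.46 ± 0.068 and *Prox1*, a factor of liver development, by 0.66 ± 0.20, the latter lost in 3 of 19 alternatives. The other was *Nr3c1*, the glucocorticoid receptor (0.16), named after its values were seen.

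Of 12 genes of growth hormone signalling and sex-biased expression, 2 were higher (background 16.2%) and 0 lower (background 14.6%) on the ketogenic diet against chow. The 2 were *Esr1*, the oestrogen receptor, and *Stat5a* (0.75 ± 0.12 and 0.38 ± 0.099). The median log2 fold change of the list was -0.095 and its lowest was -1.17. *Esr1* was also higher than on the high-fat diet (1.11 ± 0.12), where 1 of the 12 was higher (background 13.1%) and 0 lower (background 13.0%). Of 6 tested T and NK cell markers, 2 were lower (background 14.6%) and 0 higher (background 16.2%) on the ketogenic diet than on chow. The 2 were *Cd4* and *Cd3d* (-0.90 ± 0.23 and -0.69 ± 0.21), at means of 0.962 and 0.529 CPM. The median log2 fold change of the list was 0.05 and its highest was 0.44, and limma on TPM called 0 lower. *Cd163*, a scavenger receptor of macrophages, was higher on the ketogenic diet than on chow (0.65 ± 0.13). *Lyz2*, another macrophage marker, was lower (-0.45 ± 0.14, lost in 3 of 19 alternatives).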
